A study of Mus musculus with 4 samples.

Results

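IFIT and OAS antiviral effectors were followed across the cell classes of a mouse melanoma microenvironment. They are 10 interferon-induced genes that act on viral RNA or on the nucleotides a virus needs: Ifit1, Ifit2, Ifit3, Ifit1bl1, Rsad2, Cmpk2, Oasl1, Oasl2, Oas2 and Oas3. They were picked by symbol, and all 10 were found among the 12584 genes of the table. Single-cell RNA sequencing had been performed on CD45+ sorted cells of YUMM1.7-OVA RTT tumours, a Braf-mutant melanoma line that carries ovalbumin and had acquired resistance to targeted therapy. All tumours grew in Rag2-/- mice, which make no T or B cells of their own, and all mice received ovalbumin-specific OT-1 CD8+ T cells (adoptive T cell transfer, ACT) on day 7. Cells were collected on day 10, 72 h after ACT.

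There were 4 groups with 1 library each, and each library pooled 3 tumours. The CTRL tumours (Y1.7_RTT_mCherry_CTRL) carried an empty mCherry vector. The IRF3/7 tumours (Y1.7_RTT_IRF3.7_OE) carried Irf3 and Irf7 under the viral SFFV promoter, in cancer cells that had been sorted as a bulk population. The COX2i tumours carried the mCherry vector and the mice were given celecoxib, an inhibitor of the cyclooxygenase COX2. The COX2i + 5-AZA tumours carried the same vector and the mice were given celecoxib and 5-azacytidine, which blocks DNA methylation. Without a second library per group no test between groups was possible. Every difference below is one between 2 libraries. An interval in parentheses after a level, a share or the ratio of 1 gene is an exact 95% interval that covers counting error only. After a median log2 ratio it gives the medians of the genes' lower and upper limits, which is no 95% interval of the median. Where the words over the genes stand in the parentheses, they hold the lowest and the highest gene instead.

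Cells infected by a virus, or told of infection by type I interferon, switch on a set of interferon-stimulated genes, many of which carry the interferon-stimulated response element (ISRE) in their promoters. IRF3 and IRF7 bind related sequences and can switch on some of the same genes without interferon. IFIT proteins hold viral RNA that lacks the host's cap, viperin (Rsad2) makes a nucleotide that ends RNA chains, and OAS enzymes sense double-stranded RNA and make short oligoadenylates as a second messenger. In myeloid cells these genes serve as a readout of interferon exposure, also where no virus is present.

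The genes lie in 4 regions on 3 chromosomes (GENCODE M21, GRCm38, all annotated as protein-coding). Ifit2 (ENSMUSG00000045932, chromosome 19, 34550694 to 34576419, plus strand), Ifit3 (ENSMUSG00000074896, 34583531 to 34588731, plus strand), Ifit1bl1 (ENSMUSG00000079339, 34592891 to 34601956, minus strand) and Ifit1 (ENSMUSG00000034459, 34640871 to 34650009, plus strand) are neighbours. Rsad2 (ENSMUSG00000020641, chromosome 12, 26442746 to 26456452, minus strand) and Cmpk2 (ENSMUSG00000020638, 26469204 to 26479837, plus strand) point away from each other. Oasl2 (ENSMUSG00000029561, chromosome 5, 114896936 to 114912234, plus strand) and Oasl1 (ENSMUSG00000041827, 114923240 to 114937915, plus strand) form a pair, and Oas2 (ENSMUSG00000032690, 120730333 to 120749853, minus strand) and Oas3 (ENSMUSG00000032661, 120753098 to 120777661, minus strand) form another on the same chromosome. Neighbouring genes did not always share a pattern across classes, as described below.

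Promoter sequences were available from RefSeq (GRCm38.p6, 250 bases before to 50 after the start) for 9 of the 10 genes, all but Oas2. They were searched on both strands for an ISRE-like motif, GAAANNGAAA. It was found in 5 of the 9 genes (Ifit1, Ifit3, Ifit1bl1, Rsad2 and Oas3) and in 3.44% of 32851 promoters of all genes. Ifit1 and Ifit3 each held 2 copies. A GAS-like motif, TTCNNNGAA, the kind of site known from genes induced by interferon-γ, was found in 1 of the 9 genes (Ifit2) and in 8.30% of all promoters. The 2 motifs share no overlapping match in these promoters. The 160 bases before the start are shown for the genes with an ISRE-like match, 5′ to 3′ on the gene's strand, with the match in capitals. Most matches read on the other strand, so that the capitals show the reverse complement of the motif.
Ifit1, chr19:34640729-34640888, plus strand: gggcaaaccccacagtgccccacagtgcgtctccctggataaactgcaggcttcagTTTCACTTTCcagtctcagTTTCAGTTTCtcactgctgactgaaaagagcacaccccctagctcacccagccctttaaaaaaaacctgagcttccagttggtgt
Ifit3, chr19:34583369-34583528, plus strand: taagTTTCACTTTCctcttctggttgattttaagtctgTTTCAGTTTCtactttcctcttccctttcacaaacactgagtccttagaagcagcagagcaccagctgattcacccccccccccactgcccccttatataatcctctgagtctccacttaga
Ifit1bl1, chr19:34601969-34602128, minus strand: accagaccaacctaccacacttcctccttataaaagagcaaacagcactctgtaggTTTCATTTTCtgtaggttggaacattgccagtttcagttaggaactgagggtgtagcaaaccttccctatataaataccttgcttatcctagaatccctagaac
Rsad2, chr12:26456453-26456612, minus strand: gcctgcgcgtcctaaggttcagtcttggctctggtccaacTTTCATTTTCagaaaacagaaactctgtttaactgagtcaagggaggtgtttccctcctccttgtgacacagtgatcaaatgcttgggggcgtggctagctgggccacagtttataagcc
Oas3, chr5:120777660-120777819, minus strand: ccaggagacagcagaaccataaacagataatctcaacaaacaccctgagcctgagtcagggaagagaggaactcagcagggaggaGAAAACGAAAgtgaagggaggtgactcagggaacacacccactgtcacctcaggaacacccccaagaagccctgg
The matches began 104 and 85 bases before the start in Ifit1, 156 and 122 in Ifit3, 104 in Ifit1bl1, 120 in Rsad2 and 75 in Oas3. Ifit1bl1 had a further listed start with a match 23 bases before it. A match describes the letters of this window only, and the genes without one (Ifit2, Cmpk2, Oasl1 and Oasl2) were among those that differed between libraries too.

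The libraries held 6329 to 10032 cells and 26356819 to 78722763 UMIs (unique molecular identifiers, 1 per counted molecule). The IRF3/7 library was the shallowest, with a median of 3168 UMIs per cell against 6039.5 to 7502 in the others. Of the 34447 cells, 10018 shared their 16-base barcode with a cell of another library, and none shared the full barcode. The 17 cell classes are the authors' annotation. For 8 classes with a marker list of their own, that list summed highest in the class of that name. Irf3, which the IRF3/7 tumours carry as a transgene, stood at 584 CPM (the share of all UMIs, scaled as counts per 1e6) in the non-immune class Myofibrobl of the IRF3/7 library and at 24.5 to 35.1 CPM in that class of the others. Irf7 stood at 14909.5 CPM there and at 8.20 to 67.1 CPM in the others. That class had Ptprc, which encodes CD45, at 18.3 to 37.4 CPM, against 663 to 816 CPM in Infl_Mono. In monocytes and macrophages Irf3 was level at 42.6 to 44.6 CPM in the 4 libraries, whereas Irf7, itself an interferon-stimulated gene, stood at 69.3 CPM in CTRL, 92.8 in COX2i, 455 in COX2i + 5-AZA and 3170.3 CPM in IRF3/7.

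In monocytes and macrophages as 1 compartment (7614 CTRL, 7378 COX2i, 8801 COX2i + 5-AZA and 5035 IRF3/7 cells), all 10 genes were far higher in IRF3/7 than in CTRL, and 9 were at least 2-fold higher in COX2i + 5-AZA. Of all genes, 9.16% and 5.65% were at least 2-fold higher in these comparisons. Over this compartment COX2i stood close to CTRL (median log2 ratio 0.32). Among the monocyte classes pooled, which held 139 cells in CTRL, the median against CTRL was -1.22 (-1.40 to -1.002) in COX2i (558 cells), -1.86 (-2.04 to -1.68) in COX2i + 5-AZA (4684 cells) and 0.59 (0.45 to 0.75) in IRF3/7 (4596 cells). In bulk sums such as these, more cells of a high class and more RNA per cell cannot be told apart, which is why each class is described further below. Infl_Mono, a class with high levels, made up 93 of the 139 monocytes in CTRL and 130 of 558 in COX2i. In COX2i + 5-AZA it made up 764 of 4684, and in IRF3/7 4335 of 4596. Within Infl_Mono the medians against CTRL were -0.12 in COX2i, -0.54 in COX2i + 5-AZA and 0.31 in IRF3/7. Levels are compared for 1 gene across libraries and not between genes, since each gene has its own probes.

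Ifit1, the RNA-binding founder of its family, stood at 11.3 CPM (10.5 to 12.3) in CTRL, 16.9 (15.9 to 17.99) in COX2i, 55.5 (53.8 to 57.3) in COX2i + 5-AZA and 586 (575 to 598) in IRF3/7. Ifit2, which binds AU-rich RNA and promotes cell death, stood at 21.3, 26.3, 120.1 and 1151 CPM in the same order. Ifit3 stood at 27.6 (26.2 to 29.1), 26.3 (25.05 to 27.6), 102 and 1334 CPM. The order was the same for Ifit1 and Ifit2, whereas for Ifit3 the CTRL and COX2i intervals overlapped. Ifit1bl1, a relative of Ifit1 that lies beside Ifit3, stood at 4.96 CPM (4.38 to 5.58) in CTRL, 7.07 in COX2i, 35.6 in COX2i + 5-AZA and 654 (642 to 666) in IRF3/7. It showed the largest ratio of all 10 genes, with a log2 ratio of 7.04 (6.87 to 7.22) for IRF3/7 against CTRL and 2.84 (2.66 to 3.03) for COX2i + 5-AZA against CTRL.

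Rsad2 stood at 45.9 CPM (44.2 to 47.8) in CTRL, 49.2 (47.5 to 51.0) in COX2i, 160.03 (157 to 163) in COX2i + 5-AZA and 1594 CPM in IRF3/7. Cmpk2, a mitochondrial nucleotide kinase that supplies the nucleotide viperin acts on, stood at 12.3, 15.6, 48.7 and 429.9 CPM. For IRF3/7 against CTRL these neighbours were close, at a log2 ratio of 5.12 (5.06 to 5.18) for Rsad2 and 5.13 (5.01 to 5.24) for Cmpk2. The intervals of Rsad2 in CTRL and COX2i overlapped and those of Cmpk2 did not.

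Oasl1, an OAS-like protein without synthase activity that restrains translation of Irf7, stood at 13.6 CPM in CTRL, 18.5 in COX2i, 85.6 in COX2i + 5-AZA and 706 in IRF3/7. Oasl2, its neighbour, stood at 49.6 CPM (47.7 to 51.5), 61.0, 178 and 748 CPM. The step from CTRL to COX2i was larger than counting error for both. Oas3, which senses long double-stranded RNA, stood at 17.9, 30.7, 106 and 639.5 CPM. Oas2 stood at 38.8 CPM (37.2 to 40.5) in CTRL, 40.5 (39.0 to 42.1) in COX2i, 64.5 (62.6 to 66.4) in COX2i + 5-AZA and 516 (505 to 526) in IRF3/7. Oas2 had the smallest differences: its log2 ratio was 0.73 (0.66 to 0.81) for COX2i + 5-AZA against CTRL, the only gene of the 10 below a 2-fold difference there, and 3.73 (3.66 to 3.80) for IRF3/7 against CTRL, next to 3.92 (3.86 to 3.98) for Oasl2.

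**Figure D1:**
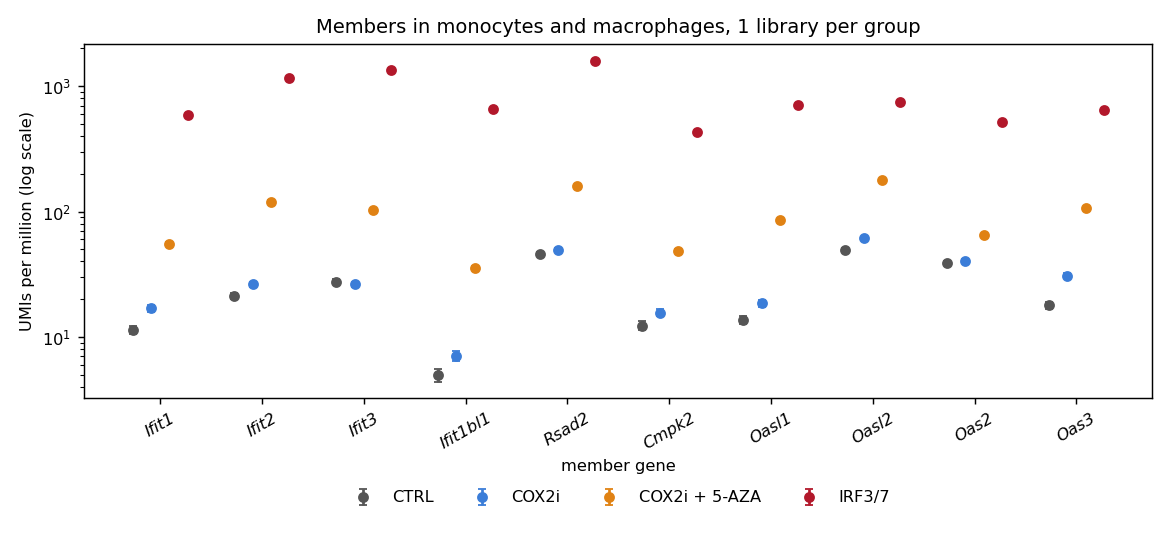
CPM (log axis) of each of the 10 genes in monocytes and macrophages, 1 point per library with its exact 95% counting interval. Every gene is highest in IRF3/7, between 429.9 and 1594 CPM, and next highest in COX2i + 5-AZA, between 35.6 and 178 CPM.

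For IRF3/7 against CTRL the median log2 ratio of the 10 genes was 5.38, with a range of 3.73 to 7.04. All 10 were at least 2-fold higher, as were 9.16% of the 11793 genes with at least 20 UMIs in the 2 libraries together, whose median was -0.55. For COX2i + 5-AZA against CTRL the median was 2.14 (0.73 to 2.84 over the genes) and 9 of 10 were at least 2-fold higher, with 5.65% of 12001 genes past that fold and a median of -0.16 over those genes. For COX2i against CTRL the median was 0.32 (-0.07 to 0.78 over the genes), none of the 10 was 2-fold higher, and 1.93% of all genes were. In that comparison the interval lay above 0 for 8 genes and reached 0 for Ifit3 and Oas2. How many of all genes had such intervals was not counted, and the median over all genes was 0.01. Adding 5-azacytidine to celecoxib went with a median of 1.75 (0.67 to 2.33 over the genes) for COX2i + 5-AZA against COX2i. There 9 of 10 genes and 6.16% of all genes were at least 2-fold higher. COX2i + 5-AZA stood below IRF3/7 for every one of the 10, with a median of -3.20 (-4.20 to -2.07 over the genes). All 10 of 10 were at least 2-fold lower against 6.63% of all genes. These comparisons share libraries, so their values stand side by side and are not independent.

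The libraries also differed in which classes were present. Infl_Mono, the class the authors named inflammatory monocytes, made up 1.22% of monocytes and macrophages in CTRL (93 cells), 1.76% in COX2i (130 cells), 8.68% in COX2i + 5-AZA (764 cells) and 86.1% in IRF3/7 (4335 cells). The authors named this class by its high level of interferon-stimulated genes, and several of the 10 genes stand in gene lists that the study drew from data including these libraries. High levels in Infl_Mono are thus part of what the class is, and its size is no independent finding. Its 93 CTRL cells, 0.713% of that library's UMIs, held 28.0% of the UMIs of the 10 genes. In IRF3/7 the class held 76.4% of them and 55.9% of that library's UMIs. With the class mix held fixed, that is, with each class weighted alike in both libraries, the median log2 ratio became 0.31 for IRF3/7 against CTRL, 0.16 for COX2i against CTRL, 0.04 for COX2i + 5-AZA against CTRL, 0.14 for COX2i + 5-AZA against COX2i and -1.02 for COX2i + 5-AZA against IRF3/7, over classes with at least 50 cells in both libraries. For IRF3/7 against CTRL that was Infl_Mono alone, and the macrophage classes pooled, without holding their mix fixed, had a median of 5.15 (5.01 to 5.29) with 439 IRF3/7 and 7475 CTRL cells. These pools held different classes: TAM_H2Ab1 made up 385 of the 439 IRF3/7 cells and 19 of the 7475 CTRL cells, in which the 10 genes summed to 4821 and 2033 CPM. For COX2i + 5-AZA against CTRL the fixed mix used 5 classes. They held 50.3% of this compartment's COX2i + 5-AZA cells and 94.2% of its CTRL cells. The class medians were 2.20 in TAM_cycling, 1.23 in Macro, 0.78 in TAM_C1q, -0.02 in TAM_Spp1 and -0.54 in Infl_Mono. Classes with high levels weigh more in such a mean of CPM. In CTRL the 10 genes summed to 8589 CPM in Infl_Mono and 134 CPM in TAM_cycling. Outside this compartment the IRF3/7 against CTRL median was 4.50 within cDC2 and 6.003 within Myofibrobl. In COX2i + 5-AZA the 10 genes' UMIs were spread over Monocyte_1 (31.1%), Infl_Mono (28.7%), TAM_cycling (13.1%) and TAM_H2Ab1 (9.14%), which held 27.7%, 5.17%, 23.7% and 5.70% of all UMIs of that library. In COX2i they were spread over TAM_cycling (28.2%), Infl_Mono (20.0%) and TAM_C1q (13.01%), which held 44.9%, 0.776% and 20.2% of all UMIs.

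Over the classes with at least 50 cells, Infl_Mono ranked first for all 10 genes in CTRL and in COX2i. In COX2i + 5-AZA it ranked first for 9, the exception being Oasl2, which was higher in neutrophils (658 CPM against 474 CPM). In IRF3/7 it ranked first for 8, and the cDC2 class was higher for Ifit3 (1518 against 1456 CPM, with overlapping intervals) and for Ifit1bl1 (828 against 737 CPM).

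**Figure D2:**
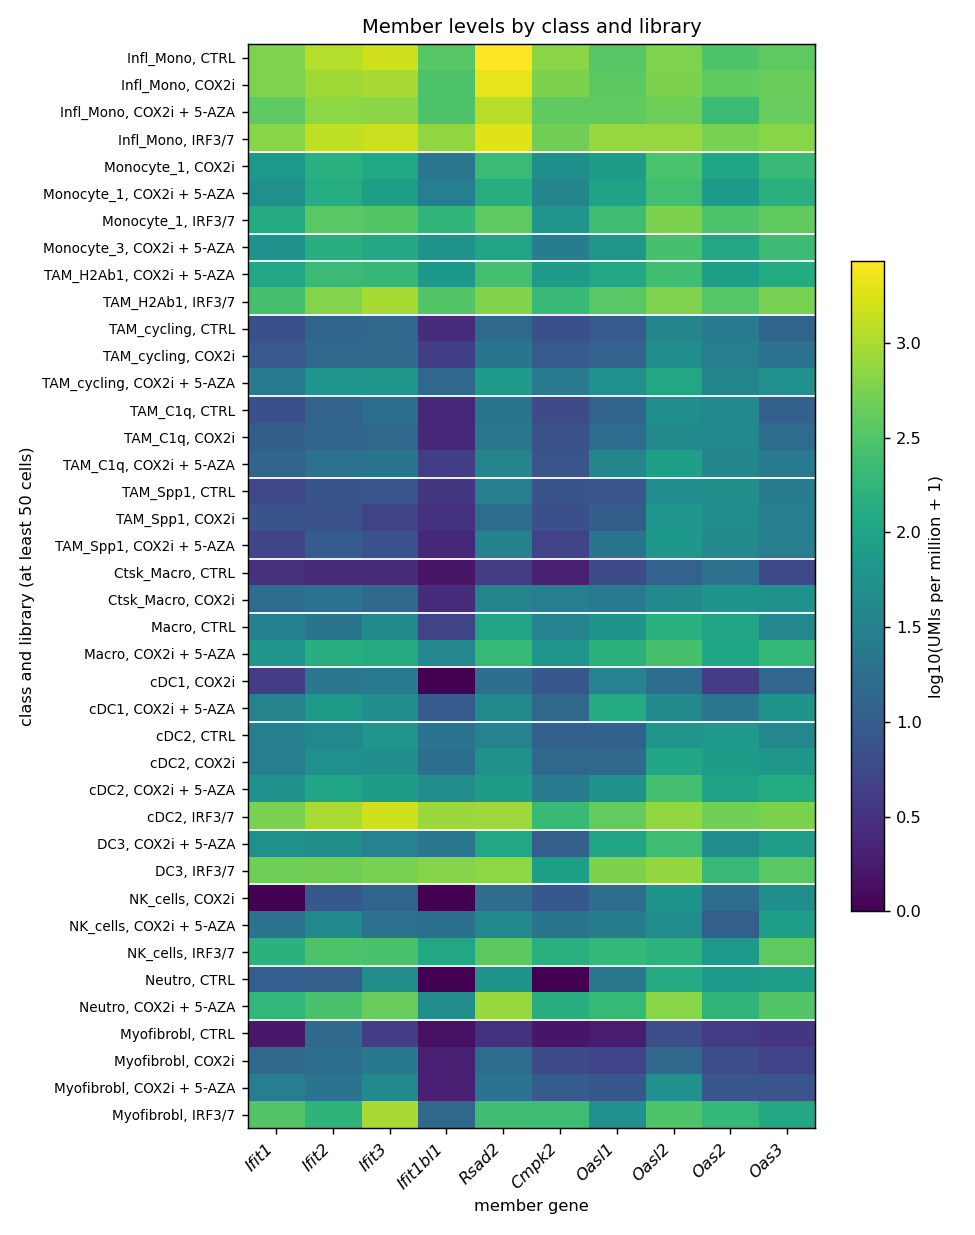
Level of each of the 10 genes, as log10 of CPM plus 1, in each class and library with at least 50 cells. Infl_Mono is high in all 4 libraries, whereas cDC2, NK_cells and Myofibrobl are higher in IRF3/7 than in the other libraries shown.

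Within Infl_Mono the genes no longer moved together. For IRF3/7 against CTRL the median log2 ratio was 0.31 (-0.57 to 1.18 over the genes), and 2 of 10 were at least 2-fold higher, Ifit1bl1 and Oasl1, with 6.17% of all genes past that fold. Rsad2 stood at 2705 CPM in CTRL, 1989.5 in COX2i, 1175 in COX2i + 5-AZA and 1823 in IRF3/7, and was thus higher in CTRL than in IRF3/7 when summed over the class, with a log2 ratio of -0.57 (-0.65 to -0.49). The interval covers counting error only, and 10 of the 93 CTRL cells held 44.0% of the UMIs of the 10 genes. Cmpk2 went the same way, at 679, 576, 389 and 487 CPM and a log2 ratio of -0.48 (-0.64 to -0.32). Ifit3 was alike in both, at 1534 CPM in CTRL and 1456 CPM in IRF3/7 (log2 ratio -0.08, -0.18 to 0.03). Ifit1 (log2 ratio 0.18, 0.0088 to 0.36) and Ifit2 (0.19, 0.06 to 0.31) were slightly higher in IRF3/7.

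The OAS genes and Ifit1bl1 had the larger ratios in Infl_Mono of IRF3/7. Oasl1 stood at 349 CPM in CTRL, 373 in COX2i, 393 in COX2i + 5-AZA and 789 in IRF3/7, a log2 ratio of 1.18 (0.96 to 1.40) for IRF3/7 against CTRL. Ifit1bl1 stood at 343, 296, 295 and 737 CPM, a log2 ratio of 1.10 (0.88 to 1.33). Oas2 (0.86, 0.62 to 1.10), Oas3 (0.83, 0.62 to 1.05) and Oasl2 (0.44, 0.27 to 0.61) followed. For Oasl1 and Ifit1bl1 the other 3 libraries stood close together and IRF3/7 alone stood apart.

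Infl_Mono of COX2i + 5-AZA had the lowest level of the 4 libraries for 8 of the 10 genes, all but Oasl1 and Oas3. Against CTRL the median log2 ratio was -0.54, and 0 of 10 genes were at least 2-fold higher, with 6.04% of all genes past that fold. Rsad2 (-1.20, -1.29 to -1.11) and Ifit3 (-1.17, -1.29 to -1.05) were over 2-fold lower, as were 10.8% of all genes. Ifit1bl1 (-0.22, -0.45 to 0.03), Oas3 (0.19, -0.03 to 0.42) and Oasl1 (0.17, -0.06 to 0.41) had intervals that reached 0. Against IRF3/7 the median was -0.83, and 4 of 10 genes were at least 2-fold lower (Ifit1bl1, Oas2, Ifit3 and Oasl1) against 4.69% of all genes.

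The cells of Infl_Mono were less alike in CTRL than in IRF3/7. The summed level of the 10 genes per cell had a 10th percentile of 373 CPM, a median of 3524 and a 90th percentile of 20719 in CTRL, and of 2459, 6755 and 18349 CPM in IRF3/7. Macrophage markers moved with this class: all 5 of 5 were detected in every library, and they summed to 48333 CPM in Infl_Mono of CTRL, 16112.5 in COX2i, 6273 in COX2i + 5-AZA and 9121 in IRF3/7, with Apoe alone at 35413.5 CPM in CTRL and 5786 CPM in IRF3/7. Monocyte markers (4 of 5 had values) summed to 4804, 7994, 9883 and 12704 CPM, and none was at 0. The neutrophil marker S100a8 stood at 51.6, 169, 3556 and 839 CPM in the same order. Their part in the differences within Infl_Mono was not tested.

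**Figure D3:**
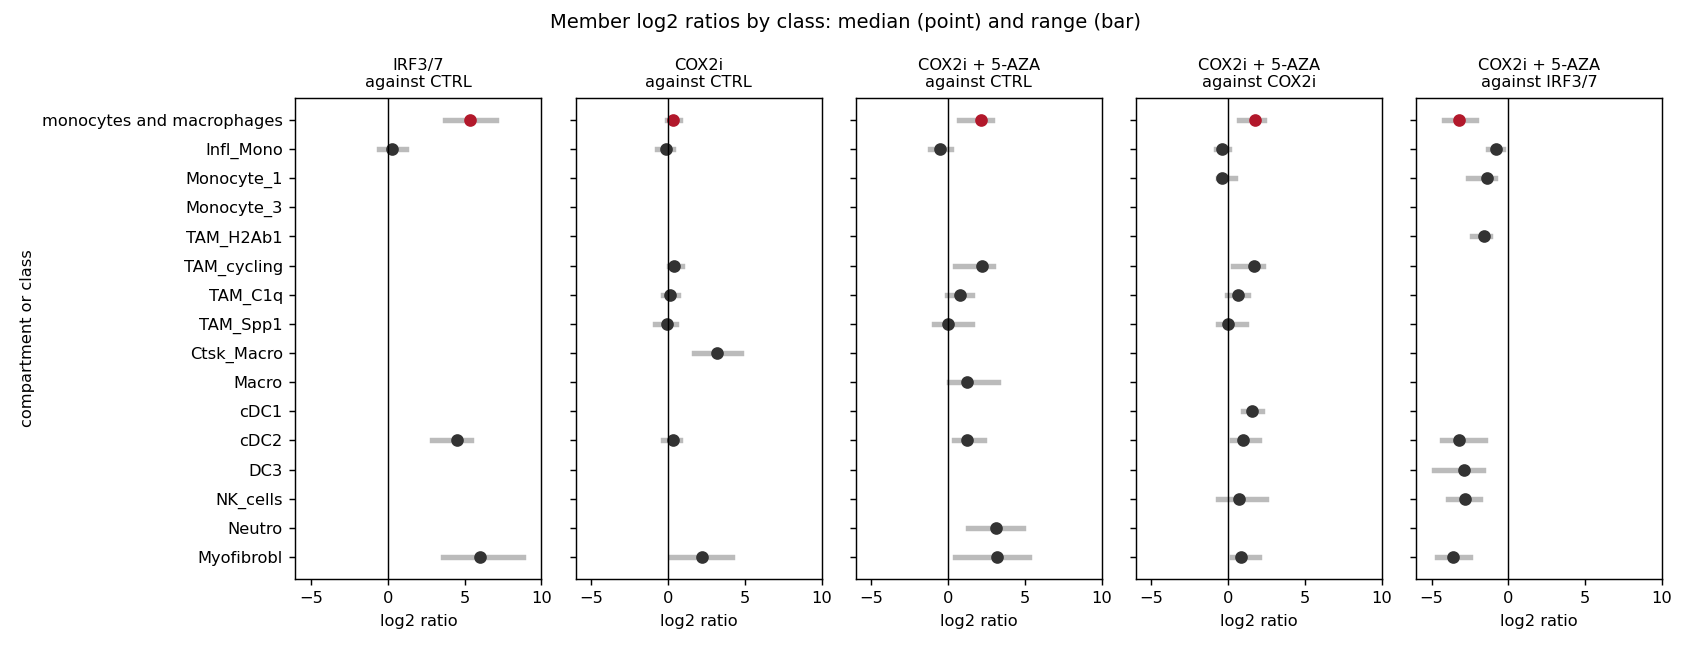
Log2 ratio of the 10 genes between 2 libraries, in monocytes and macrophages together (red) and class by class where both libraries held 50 cells or more, with the median over the genes tested as a point and the lowest to highest gene as a bar. The IRF3/7 against CTRL median is 5.38 in the compartment and 0.31 in Infl_Mono.

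Other monocytes and macrophages carried lower levels that still differed between libraries. In Monocyte_1, COX2i + 5-AZA stood below IRF3/7 with a median log2 ratio of -1.41, and 9 of 10 genes were at least 2-fold lower, against 7.90% of all genes. Ifit3, for example, stood at 83.3 CPM in COX2i + 5-AZA and 329 CPM in IRF3/7. In TAM_H2Ab1, macrophages with high MHC class II, the median was -1.58 and 10 of 10 genes were at least 2-fold lower against 6.06% of all genes, with Ifit3 at 192 CPM in COX2i + 5-AZA and 974 CPM in IRF3/7. Monocyte markers (4 of 5 had values, all detected) summed to 1730.3 CPM in TAM_H2Ab1 of COX2i + 5-AZA and 3472 CPM in IRF3/7, and macrophage markers (5 of 5) to 24991 and 35365 CPM. Their part was not tested. TAM_C1q, TAM_Spp1 and TAM_cycling had 20 cells or fewer each in IRF3/7 and were not compared with it.

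Among those 3 macrophage classes the cycling cells differed most when 5-azacytidine was added to celecoxib. In TAM_cycling the median log2 ratio for COX2i + 5-AZA against COX2i was 1.69 (0.32 to 2.27 over the genes), and 9 of 10 genes and 4.10% of all genes were at least 2-fold higher. Ifit2 stood at 13.1 CPM in COX2i and 62.8 CPM in COX2i + 5-AZA there, and Oasl1 at 11.0 and 52.2 CPM. In TAM_C1q the median was 0.62, and 3 of 10 genes (Ifit1bl1, Oasl1 and Oasl2) and 4.16% of all genes were at least 2-fold higher. In TAM_Spp1 it was 0.01, with 2 of 10 genes (Oasl1 and Rsad2) and 3.12% of all genes past the fold. Oas2 stayed within 2-fold in all 3 classes, with a log2 ratio of 0.32 (0.17 to 0.46) in TAM_cycling, -0.05 (-0.23 to 0.12) in TAM_C1q and -0.27 (-0.53 to -0.01) in TAM_Spp1. Of the 10 genes' UMIs in TAM_C1q of CTRL, Oasl2 made up 29.1% (27.7 to 30.6) and Oas2 22.4% (21.1 to 23.7), against 6.78% (6.03 to 7.59) and 3.58% (3.04 to 4.19) in Infl_Mono of CTRL. The make-up of the 10 genes thus differed between these classes of 1 library. From COX2i to COX2i + 5-AZA the monocyte markers (4 of 5 had values, all detected) summed to 1203 and 1282 CPM in TAM_cycling, 1173 and 1040.5 CPM in TAM_C1q, and 2301 and 1947 CPM in TAM_Spp1. Of these, Plac8 stood at 46.2 and 258 CPM in TAM_cycling, 24.1 and 142 CPM in TAM_C1q, and 346 and 475 CPM in TAM_Spp1. Their part was not tested.

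For COX2i against CTRL, Ctsk_Macro and Myofibrobl had higher levels, whereas the median log2 ratio was 0.43 (0.14 to 0.73) in TAM_cycling, -0.12 (-0.36 to 0.15) in Infl_Mono and 0.34 (-0.20 to 0.91) in cDC2. The last pair changed sign without cells that share a barcode across libraries. In Ctsk_Macro (157 COX2i and 380 CTRL cells) the median log2 ratio was 3.17, and 9 of the 9 genes with enough UMIs were at least 2-fold higher, against 4.02% of all genes. Rsad2 stood at 34.4 CPM in COX2i and 3.15 CPM in CTRL there. In this class the 10 genes had 476 UMIs in COX2i and 186 in CTRL. The top 16 of the 157 COX2i cells held 64.3% of them, and 1 cell held 8.82%. From CTRL to COX2i C1qa stood at 2064 and 1088 CPM, Fcgr1 at 99.6 and 138 CPM and Plac8 at 23.9 and 18.4 CPM, and their part was not tested. In the non-immune class Myofibrobl (913 and 554 cells) the median was 2.24, and 6 of 9 genes and 4.54% of all genes were at least 2-fold higher. Few cells carried these values: the top 92 of the 913 COX2i cells held 86.9% of the 10 genes' UMIs, and 1 cell held 20.6%. Monocyte markers (4 of 5 had values, all detected) summed to 85.7 CPM in Myofibrobl of CTRL, 169 in COX2i, 202 in COX2i + 5-AZA and 299 CPM in IRF3/7, and macrophage markers (5 of 5) to 2517, 1939, 987 and 254 CPM. Their part in the differences of this class was not tested.

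The non-immune class of the IRF3/7 library, the class in which Irf3 was high, expressed the genes in another proportion. All 10 were at least 2-fold higher than in CTRL (median log2 ratio 6.003), as were 6.07% of all genes. Ifit3 stood at 3.22 CPM in CTRL, 23.3 in COX2i, 43.3 in COX2i + 5-AZA and 964 CPM in IRF3/7. Ifit1 stood at 0.726, 13.1, 28.4 and 325 CPM. Ifit1bl1 and Oasl1 reached 13.6 CPM and 54.0 CPM in IRF3/7. Set against Infl_Mono of the same library, the non-immune class had 66.2% (64.1 to 68.4) of its Ifit3 level, 49.2% (46.5 to 51.9) of Ifit1, 47.6% (44.6 to 50.8) of Cmpk2, 12.9% (12.2 to 13.8) of Rsad2, 6.84% of Oasl1 and 1.85% (1.41 to 2.37) of Ifit1bl1. The monocyte gene Fcgr1 was at 1.68% (1.44 to 1.959) and the macrophage gene C1qa at 2.63% (2.24 to 3.07). Ifit1bl1 thus stood in these cells near the level of the 2 myeloid genes, whereas Ifit3 stood far above it. In COX2i + 5-AZA against CTRL, 8 of 9 genes of this class were at least 2-fold higher (median 3.17), against 5.53% of all genes, with 160 COX2i + 5-AZA cells.

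Dendritic cells, NK cells and neutrophils of IRF3/7 were high as well. In cDC2 all 10 genes were at least 2-fold higher in IRF3/7 than in CTRL (median log2 ratio 4.50, 390 and 645 cells), against 6.01% of all genes. Ifit3 stood at 60.0 CPM in CTRL, 48.3 in COX2i, 77.0 in COX2i + 5-AZA and 1518 in IRF3/7. The Ifit3 interval of CTRL overlapped those of COX2i and COX2i + 5-AZA. Oasl2 stood at 60.0, 103, 258 and 747 CPM, with no overlap between any of the libraries. For COX2i + 5-AZA against COX2i the median in cDC2 was 0.94, with 4 of 10 genes and 3.44% of all genes past the fold. Monocyte markers (4 of 5 had values, all detected) also summed higher in cDC2 of IRF3/7, 7793 CPM against 1243 to 3072 CPM in the others, while macrophage markers (5 of 5 detected) summed to 741 CPM against 1657 to 1680.2 CPM. Their part was not tested.

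In NK_cells, 10 of 10 genes were at least 2-fold lower in COX2i + 5-AZA than in IRF3/7 (median log2 ratio -2.83, 437 and 568 cells), against 2.51% of all genes. Oas3 stood at 82.3 CPM in COX2i + 5-AZA and 382 CPM in IRF3/7 (log2 ratio -2.22, -2.47 to -1.97), and Oas2 at 10.0 and 70.2 CPM (-2.81, -3.58 to -2.11). Within IRF3/7, Oas3 in NK_cells was 57.0% (52.9 to 61.4) of its Infl_Mono level and Oas2 12.6% (10.6 to 14.9), next to 10.8% (9.83 to 11.8) for Fcgr1 and 15.1% (13.7 to 16.6) for C1qa. Relative to Infl_Mono, Oas3 and its neighbour Oas2 thus stood apart in these cells, and Oas2 stood between both myeloid genes. Monocyte markers (4 of 5 had values, all detected) summed to 3564 CPM in NK_cells of COX2i + 5-AZA and 6286 CPM in IRF3/7, and macrophage markers (5 of 5) to 3522 and 1047 CPM. Their part was not tested. In neutrophils (196 COX2i + 5-AZA and 65 CTRL cells) 10 of 10 genes were at least 2-fold higher in COX2i + 5-AZA (median 3.15), against 7.58% of all genes. Ifit1bl1 and Cmpk2 had 0 UMIs in the CTRL neutrophils, so their ratios are bounds against a floor of 3 UMIs. The 49 neutrophils of IRF3/7 had Rsad2 at 2784 CPM and Ifit3 at 2290.5 CPM, 153% and 157% of the Infl_Mono level of that library. Cmpk2 stood at 95.4% (75.4 to 119) of that level, Ifit1bl1 at 84.5% (69.1 to 102) and Oasl1 at 63.3% (50.5 to 78.3), and the other genes between 102% and 163%, next to 54.3% (47.1 to 62.2) for Fcgr1 and 81.8% (70.5 to 94.4) for C1qa. Monocyte markers (4 of 5 had values, all detected) summed to 1875 CPM in CTRL neutrophils, 4722 CPM in COX2i + 5-AZA and 10049 CPM in IRF3/7, with Plac8 at 317, 2257 and 5967 CPM. Macrophage markers (5 of 5 detected) summed to 33355 CPM in CTRL neutrophils, 4439 CPM in COX2i + 5-AZA and 7053 CPM in IRF3/7, with the neutrophil markers at 24460.5, 89640.0 and 37875 CPM, and their part was not tested.

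To compare cells at equal depth, each cell was thinned at random to 1500 UMIs, and cells with fewer were left out (68 to 331 per library in monocytes and macrophages). The mean number of the 10 genes seen per cell was 0.276 in CTRL, 0.365 in COX2i, 1.11 in COX2i + 5-AZA and 5.43 in IRF3/7. None of the genes was seen in 82.1% (81.2 to 82.9) of CTRL, 79.2% (78.3 to 80.2) of COX2i, 48.5% (47.4 to 49.5) of COX2i + 5-AZA and 1.42% (1.11 to 1.81) of IRF3/7 cells. At full depth these shares were 57.7%, 49.3%, 18.7% and 0.357%. In Infl_Mono the mean was 3.85 in CTRL, 4.09 in COX2i, 3.43 in COX2i + 5-AZA and 5.70 in IRF3/7. In cDC2 it was 0.379, 0.521, 1.14 and 5.19.

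The single genes differed in how many Infl_Mono cells showed them. Ifit1bl1 was seen in 17.2% of thinned CTRL cells, 22.4% of COX2i, 20.1% of COX2i + 5-AZA and 51.5% of IRF3/7 cells (31.2%, 30.8%, 36.0% and 66.6% at full depth). Rsad2 was seen in 44.1% of CTRL and 64.7% of IRF3/7 cells although its summed level was higher in CTRL, so no order is read from these shares for Rsad2. In NK_cells of IRF3/7, Oas3 was seen in 38.4% and Oas2 in 6.67% of thinned cells (59.7% and 12.7% at full depth). In the non-immune class of CTRL, at a median depth of 15007.5 UMIs, 4.33% of cells had a UMI of Oasl2 and 0.542% one of Ifit1bl1 before thinning.

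**Figure D4:**
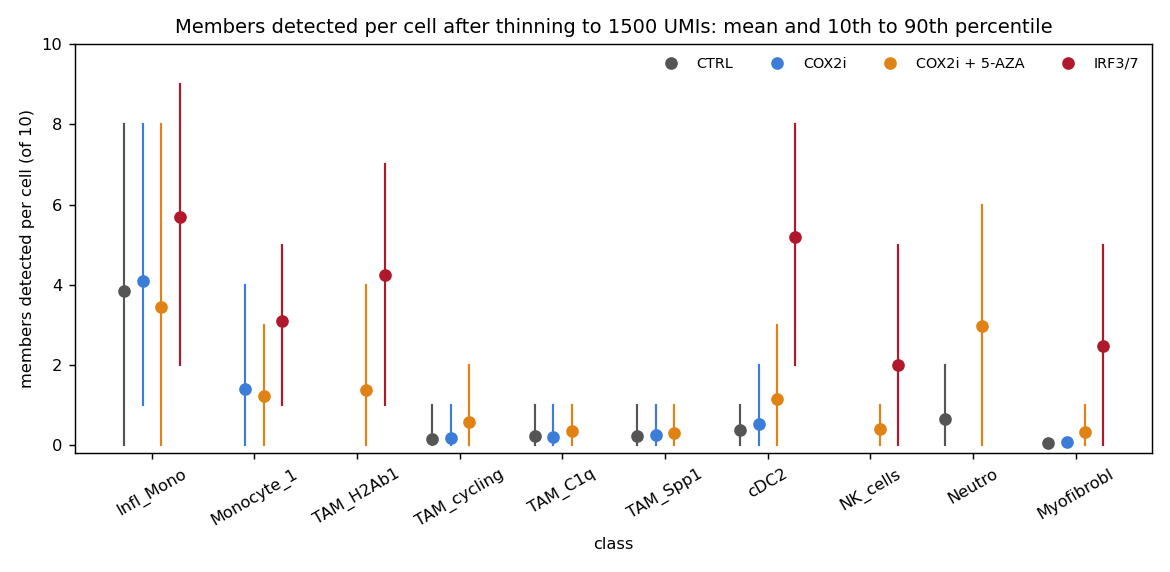
Number of the 10 genes seen per cell after thinning to 1500 UMIs, as the mean (point) with the 10th to 90th percentile of cells (line), for classes and libraries with at least 50 cells left. Infl_Mono means lie between 3.43 and 5.70 in the 4 libraries, and the cDC2 mean of IRF3/7 (5.19) lies far above the other cDC2 means.

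A list of genes that answer mostly to interferon-γ (15 genes) was set beside the 10 effectors. In monocytes and macrophages of IRF3/7 against CTRL, all 15 were at least 2-fold higher (9.16% of all genes), with a median log2 ratio of 4.15, next to 5.38 for the 10 effectors. In COX2i + 5-AZA against CTRL all 15 were also at least 2-fold higher (5.65% of all genes), with a median of 3.89, next to 2.14 for the effectors. For COX2i + 5-AZA against IRF3/7 the list's median was -0.03, with 2 of 15 genes at least 2-fold higher (20.8% of all genes) and 4 at least 2-fold lower (6.63%), next to -3.20 for the effectors and 0.33 for all genes. Gbp2, a GTPase that attacks pathogen vacuoles, stood at 82.0 CPM in CTRL, 345 in COX2i, 1659.7 in COX2i + 5-AZA and 1629 CPM in IRF3/7. The chemokine Cxcl9 stood at 24.7, 111, 602 and 270 CPM, Gbp2b at 2.05, 13.5, 135 and 66.0 CPM, Gbp4 at 10.5, 42.2, 305 and 329.9 CPM and Gbp8 at 17.4, 31.6, 258 and 264 CPM. The log2 ratio of COX2i + 5-AZA against IRF3/7 was 1.16 for Cxcl9, 1.03 for Gbp2b, 0.03 for Gbp2, -0.03 for Gbp8 and -0.11 for Gbp4, whereas it was -2.07 or lower for every one of the 10 effectors. Within Infl_Mono the list's median was 2.09 for COX2i + 5-AZA against CTRL, with 13 of 15 genes at least 2-fold higher (6.04% of all genes), while that of the effectors was -0.54. For IRF3/7 against CTRL it was 1.67 there, with 11 of 15 genes at least 2-fold higher (6.17% of all genes), next to 0.31 for the effectors.

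**Figure D5:**
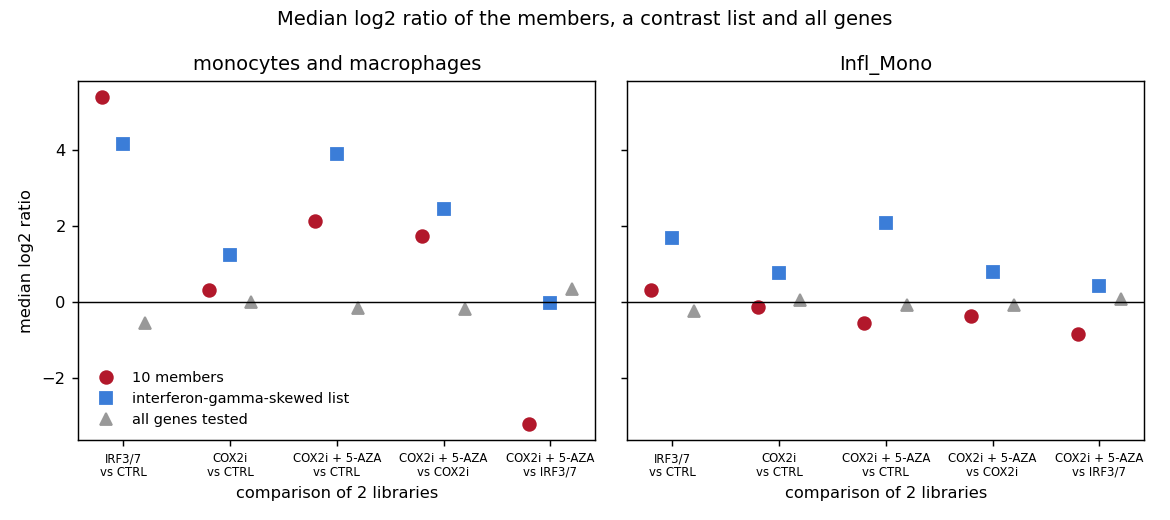
Median log2 ratio of the 10 effectors, of the 15 genes of the interferon-γ list and of all genes with at least 20 UMIs, for 5 comparisons of 2 libraries, in monocytes and macrophages and in Infl_Mono. For COX2i + 5-AZA against IRF3/7 the effectors lie at -3.20 and the list at -0.03.

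Other genes of the pathway were counted in the same cells, for IRF3/7 against CTRL and then COX2i + 5-AZA against CTRL, where 9.16% and 5.65% of all genes were at least 2-fold higher. Of the near copies of the effectors, 5 of 10 listed had values, and 5 and 4 of them were at least 2-fold higher: Ifit3b (log2 ratios 5.09 and 1.03), Ifit1bl2 (4.70 and 2.22), Oas1a (3.08 and 1.23), Oas1c (1.98 and 0.42) and Oas1g (3.75 and 1.33). Ifit3 and Ifit3b share 66.1% of the 25-base words of the longest protein-coding transcript of Ifit3, Ifit1bl1 and Ifit1bl2 24.5% and Ifit1 and Ifit1bl2 10.1%, so values of these genes are uncertain to the extent that a probe binds a copy. Of the interferon genes listed, Ifng alone had values. It stood at 199 CPM in NK_cells of COX2i + 5-AZA and 418 CPM in those of IRF3/7, and at 1.34 CPM or less in monocytes and macrophages. NK_cells held 377 of its 696 UMIs in COX2i + 5-AZA and 840 of 1437 in IRF3/7, and the rest lay in other classes. The CD8 T cell class, T_CD8, had 7 and 8 cells in these libraries and was too small to be compared.

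Of 9 receptor and signalling genes, 4 were at least 2-fold higher in IRF3/7 and 3 in COX2i + 5-AZA (medians 0.77 and 0.50), against the same 9.16% and 5.65% of all genes. The receptor chains Ifnar1 (-0.56 and -0.43) and Ifnar2 (0.03 and -0.23) and the kinases Jak1 (-0.36 and 0.00) and Tyk2 (0.77 and 0.65) stayed within 2-fold. Of 5 negative regulators, 4 were at least 2-fold higher in each comparison (medians 5.09 and 2.30): the deISGylase Usp18 (5.56 and 2.30), Socs1 (5.09 and 4.03), Socs3 (1.90 and 1.14) and the ubiquitin-like modifier Isg15 (6.05 and 3.05), with the phosphatase Ptpn6 at 0.52 and 0.42. Of 14 other antiviral effectors 11 had values, and 11 and 8 were at least 2-fold higher (medians 3.44 and 1.72), among them the nucleic acid sensor Zbp1 (4.56 and 2.87), the exonuclease Isg20 (5.93 and 1.84) and the membrane protein Ifitm3 (3.13 and 1.82), with the kinase Eif2ak2 at 1.86 and 0.48 and the tether Bst2 at 1.81 and 0.55.

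Across 40 class-by-library units of at least 50 cells (15 classes), the genes with the profile most like the mean of the 10 on log2(CPM + 1) were Rnf213 (Pearson r 0.979), Ifih1 (0.967), Isg15 (0.964), Xaf1 (0.959), Ifi208 (0.9502), Ifi206 (0.943), Herc6 (0.942) and Slfn8 (0.939), out of 11432 genes with at least 200 UMIs. Among the 10, Rsad2 was most like the mean of the others (r 0.978) and Oas2 least (0.864). The lowest pair was Oas2 with Ifit2 (0.770) and the highest Ifit3 with Ifit2 (0.955). The units share libraries and depth, so these values describe the table and carry no p-value.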

How the data were processed

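Single CD45+ cells were profiled with the Chromium Flex kit, which ligates probe pairs on fixed RNA (22 h fixation) and counts unique molecular identifiers (UMIs). The submitters' processing notes name Cell Ranger 7.1.0 and mm10. The authors state that they kept cells with more than 1000 genes, under 15% mitochondrial and under 40% ribosomal content, integrated several experiments, named clusters and removed ribosomal and mitochondrial genes. The values deposited by the authors are UMI counts of each gene in each cell, not normalised. In the table, 1201 cells had 1000 genes or fewer. Doublet removal is not given in the sources used here, and no caller was run.

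The members and gene lists were chosen with earlier results of these data known. UMIs were summed over the cells of a class or compartment and divided by their total (CPM). Monocytes are Infl_Mono, Monocyte_1 and Monocyte_3, and macrophages TAM_C1q, TAM_Spp1, TAM_cycling, TAM_H2Ab1, Ctsk_Macro and Macro. Levels carry exact Poisson, ratios exact conditional and shares of cells Clopper-Pearson 95% intervals. UMIs come from probes ligated to molecules, and the intervals cover counting error only. Genes below 20 UMIs in both libraries together were left out of counts, classes needed 50 cells in both libraries, and a count of 0 was set to 3 UMIs, which is 0.0381 to 0.114 CPM over a whole library. With 1 library per group there is no test. Called means at least 2-fold. Named genes are the 10, up to 5 per list in listed order, the 8 most alike in profile, Irf3 and Irf7 (the transgenes) and markers. Ratios and thinning were tested on simulated data. Python 3.11.15, numpy 2.4.6, scipy 1.17.1 and pandas 2.3.3 were used. The cell probe-barcode table was not used. Protein sequences were not used here, and 1 of the gene lists is not reported here. Alternatives are in the closing section.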

Additional observations from a re-analysis of the deposited data

Results flagged for a closer look

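The 10 effectors were higher in COX2i + 5-AZA than in CTRL and COX2i over monocytes and macrophages, but most were lower within monocyte classes. In Infl_Mono the interval lay below 0 for 7 of 10 genes and spanned 0 for 3, against CTRL and against COX2i alike. In Monocyte_1 against COX2i it lay below 0 for 8, above 0 for 1 and spanned 0 for 1. How many of all genes had such intervals was not counted. The median log2 ratio over all genes was -0.07 against CTRL and -0.09 against COX2i in Infl_Mono, and -0.07 against COX2i in Monocyte_1. In Infl_Mono the median log2 ratio of the effectors was -0.54 for COX2i + 5-AZA against CTRL (764 and 93 cells), next to 2.14 in the compartment. It was -0.38 for COX2i + 5-AZA against COX2i (764 and 130 cells), next to 1.75 in the compartment. In Monocyte_1 it was -0.40 for COX2i + 5-AZA against COX2i (3640 and 394 cells). These results stood out because a class and its compartment moved in opposite directions under the same contrast, by more than the counting interval. The difference between class and compartment was not tested, since each group has 1 library. In Monocyte_1 the median was 0.0025 in the cells that had over 2000 genes.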

How the results depend on the processing

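With 1 library per group no replicate could be left out, and a difference between libraries cannot be told apart from one between conditions. Depth differs too, with IRF3/7 shallowest. The largest shifts came with the class mix held fixed. The median log2 ratio in monocytes and macrophages then became 0.31 (from 5.38) for IRF3/7 against CTRL, where Infl_Mono alone could be used, 0.16 (from 0.32) for COX2i against CTRL, 0.044 (from 2.14) for COX2i + 5-AZA against CTRL, 0.14 (from 1.75) against COX2i and -1.02 (from -3.20) against IRF3/7. The genes at least 2-fold higher numbered 2 for IRF3/7 against CTRL (9.52% of all genes), 1 for COX2i + 5-AZA against CTRL (4.08%) and 0 against COX2i (4.07%), and 6 were 2-fold lower against IRF3/7 (5.01%). Single genes then changed sign: Ifit3 (-0.076), Rsad2 (-0.57) and Cmpk2 (-0.48) for IRF3/7 against CTRL, Ifit2 (-0.066) and Rsad2 (-0.12) for COX2i against CTRL, Ifit1 (-0.0021), Ifit3 (-0.37), Rsad2 (-0.51), Cmpk2 (-0.25) and Oas2 (-0.073) for COX2i + 5-AZA against CTRL, and Ifit1 (-0.13), Rsad2 (-0.22), Cmpk2 (-0.10) and Oas2 (-0.25) for COX2i + 5-AZA against COX2i. The alternative's construction, fewer classes with the same weights in both libraries, sets it apart. For COX2i + 5-AZA against CTRL its classes held 50.3% of the compartment's COX2i + 5-AZA cells. Their medians ran from -0.54 in Infl_Mono to 2.20 in TAM_cycling.

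Size factor scaling gave medians of 5.84, 2.30, 1.94 and -3.48 for IRF3/7 against CTRL and COX2i + 5-AZA against CTRL, COX2i and IRF3/7, over all cells 5.55, 2.44, 2.04 and -3.03, and -0.94 in Infl_Mono for COX2i + 5-AZA against IRF3/7. The mean of per-cell CPM gave 5.16 for IRF3/7 and 0.63 for COX2i against CTRL (1 gene at least 2-fold higher, as were 2.47% of all genes), and 2.30, 1.59 and -2.86 for COX2i + 5-AZA against CTRL, COX2i and IRF3/7. Cells with more than 2000 genes gave 5.47, 1.85 and -3.29 for IRF3/7 against CTRL and COX2i + 5-AZA against COX2i and IRF3/7, over all cells 5.09, 1.90 and -2.77, and -1.01 in Infl_Mono for the last, and turned Monocyte_1 for COX2i + 5-AZA against COX2i to 0.0025 (from -0.40, cause not tested). Without Myofibrobl the all-cell medians of COX2i + 5-AZA were 2.09 against CTRL, 1.701 against COX2i and -3.07 against IRF3/7. The difference in mean number of genes seen per cell moved with depth: thinned to 1000 and 3000 UMIs and unthinned it was 4.18, 6.87 and 6.31 for IRF3/7 minus CTRL, and for COX2i + 5-AZA 0.63, 1.24 and 1.89 minus CTRL, 0.54, 1.13 and 1.59 minus COX2i, and -3.54, -5.62 and -4.42 minus IRF3/7, with 0.30 unthinned for COX2i minus CTRL. Leaving out cells whose 16-base barcode occurs in another library, an alternative chosen after seeing the data, moved the 39 medians by at most 0.58. It changed the sign of 5 whose main intervals span 0. For COX2i against CTRL these were Infl_Mono (from -0.12 to 0.025), cDC2 (from 0.34 to -0.089), TAM_C1q (from 0.14 to -0.013) and TAM_Spp1 (from -0.066 to 0.15). For COX2i + 5-AZA against CTRL it was TAM_Spp1 (from -0.017 to 0.48).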
